A study of Caenorhabditis elegans with 2 samples.

Results

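The genes mir-35 to mir-41 of Caenorhabditis elegans (cel-mir-35 to cel-mir-41 in the annotation) are 7 microRNA genes in 1 cluster on chromosome II, and they were taken by name from the 261 microRNA genes annotated on the nuclear chromosomes. They were examined in chromatin immunoprecipitation followed by sequencing (ChIP-seq) of PES-1, a forkhead transcription factor made in the early embryo. The samples were 2 biological replicates of whole early embryos at 1 hour, with egg bleaching as the synchronization step, of strain RW12239. Its allele st12239, on chromosome IV, carries pes-1::TY1::EGFP::3xFLAG, inserted with CRISPR, and an anti-GFP antibody was used on sonicated chromatin. Both replicates are of this 1 strain and age, there is no untagged or second condition, and both were set against the same control file. Whole embryos mix all their cells, so a peak cannot be assigned to a cell type, and lists of peaks hold no expression values against which to check the labelled stage. The genes were chosen by name, selected on the summit positions and peak signals that these same lists had shown for them, so the counts and levels here are descriptions and carry no test.

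MicroRNAs are cut from hairpin precursors and guide Argonaute proteins to messenger RNAs, mainly through the seed near their 5′ end. The mir-35 family is made in the oocyte and early embryo of the worm, and its members act redundantly: embryos that lack the whole family die, while a single member can restore much of its function. The hairpins of the cluster lie on 1 strand and are thought to be made from a shared primary transcript.

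All 7 genes have the same seed, which is shown here because it is what makes them a family. The mature RNAs of the 3′ arm, read from the RefSeq WBcel235 genome sequence at the annotated positions, are given 5′ to 3′ with the seed (bases 2 to 8) in capitals.
cel-mir-35: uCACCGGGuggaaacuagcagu
cel-mir-36: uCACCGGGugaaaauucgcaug
cel-mir-37: uCACCGGGugaacacuugcagu
cel-mir-38: uCACCGGGagaaaaacuggagu
cel-mir-39: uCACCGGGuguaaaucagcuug
cel-mir-40: uCACCGGGuguacaucagcuaa
cel-mir-41: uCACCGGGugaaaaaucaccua
cel-mir-42: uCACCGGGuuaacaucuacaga

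The seed CACCGGG was carried by 8 annotated microRNA genes, the 7 of the cluster and mir-42, which lies elsewhere on chromosome II. Among the 7 clustered genes the first 8 bases were identical and 11 of the 22 positions were identical in all. Over 21 pairs the mature RNAs differed at 3 to 9 positions. The closest pairs were mir-35 with mir-37 and mir-39 with mir-40, and the most distant was mir-38 with mir-40. The opposite arms shared no seed, with 7 different seeds among the 7 genes. Whole hairpins were 54.7% to 66.7% identical in pairwise alignments. Every word of 36 bases in the cluster occurred once in the genome, as did every such word in the conservative peak over mir-36 and in the one 496 bp before mir-35. The read length is not given in the sources used here.

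The cluster runs from 11537608 to 11538404 on the plus strand of chromosome II (ce11, 797 bp) and lies within intron 2 of Y62F5A.9, a protein-coding gene of the minus strand with 4 exons. That intron runs from 11536066 to 11538445. The 5′ end of Y62F5A.9 is 437 bp beyond mir-41 and is the nearest protein-coding 5′ end. On the other side, the nearest is that of Y62F5A.12, 3129 bp before mir-35. The nearest tRNA or snoRNA gene is the snoRNA gene Y62F5A.11, at 5314 bp. The annotation also places 3 short noncoding RNA genes of the plus strand over the cluster. Y62F5A.16 lies across the start of mir-35, and Y62F5A.14 runs from the end of mir-36 into mir-37. Y62F5A.15 runs from the base just after mir-38 into mir-39.

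A peak of tagged PES-1 stood over mir-36, near the start of the cluster, and a second stood in front of the cluster. In the conservative list, which holds the peaks that passed the threshold on the irreproducible discovery rate (IDR) between the replicates, the stronger peak was at chrII:11537669-11537868 with its summit inside the mir-36 hairpin, at position 133 counted from 0 at the first base of the mir-35 hairpin. The weaker was at chrII:11536947-11537276, with its summit 496 bp before mir-35 in the same intron. Signals are the authors' own value per peak and have no stated unit. The conservative signal was 201 at the mir-36 summit and 120.0 at the upstream summit, ranks 483 and 976 among 1452 peaks whose median was 146. The first was above that median and the second below it. Their global IDR was 0.000585 and 0.00297, so the upstream peak stood nearer to the threshold of 0.01.

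**Figure D1:**
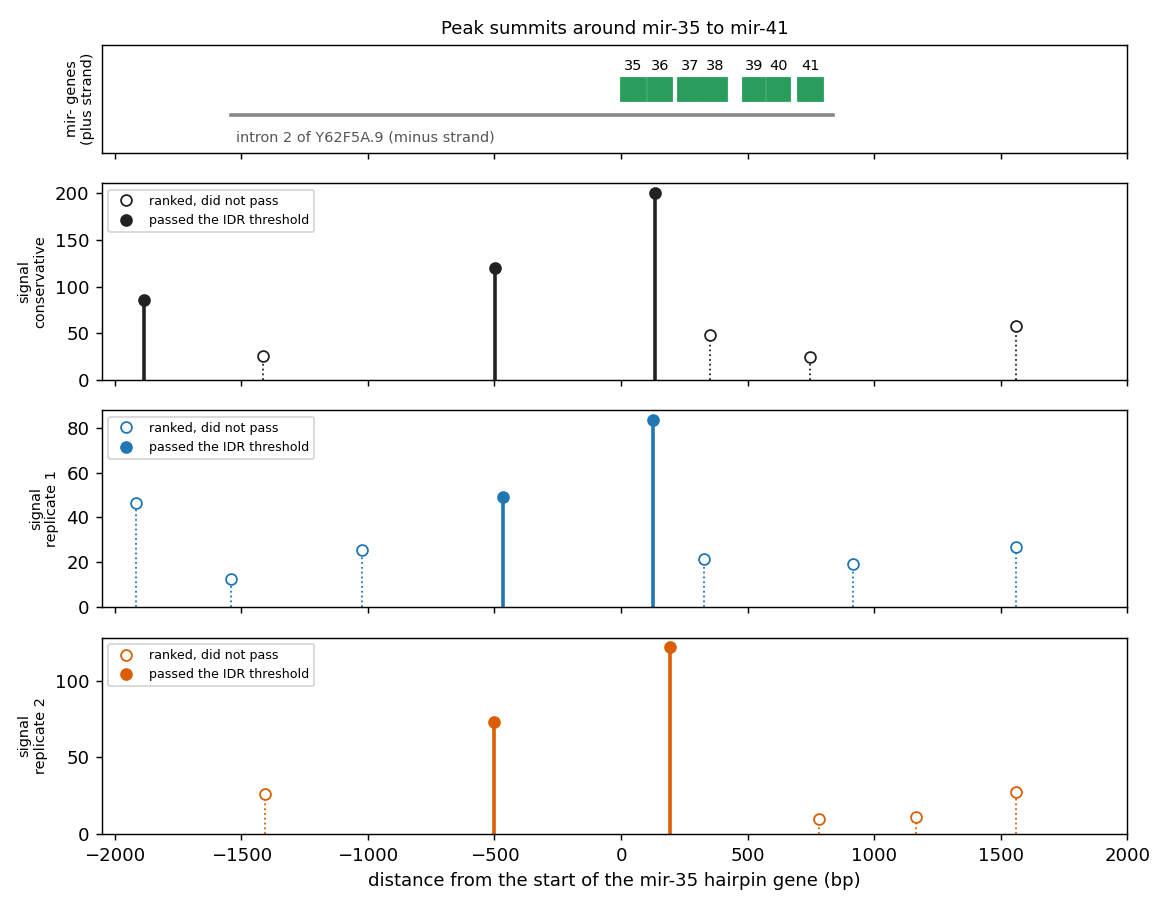
Peak signal against distance from the start of the mir-35 hairpin gene in bp, for the conservative list, replicate 1 and replicate 2, with the 7 hairpin genes and the intron that holds them on top. The signal axes differ between panels. Filled points passed the IDR threshold of their list and open points were ranked but did not pass. In each list a filled point stands over mir-36 and another in front of mir-35, and no filled point stands over mir-37 to mir-41. The conservative panel holds a further filled point 1886 bp before mir-35.

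Both summits were found in each replicate on its own. In replicate 1 the summit inside mir-36 had a signal of 83.5, and in replicate 2 it had a signal of 122. The upstream summit had a signal of 49.3 in replicate 1 and 73.0 in replicate 2. The mir-36 summit was thus the higher of the pair in both replicates, and replicate 2 was higher at both places, by 0.55 log2 units at mir-36 and 0.57 upstream. For 1407 of the 1452 conservative peaks each replicate had a ranked summit nearby, and there the same difference had a median of 0.32 and an SD of 0.40 (log2 units), with quartiles at 0.11 and 0.57. The 2 values therefore lay within 1 SD of the median peak, and the authors state no scaling between the replicates. In their own thresholded lists the mir-36 summit ranked 564 of 1019 in replicate 1 and 460 of 1164 in replicate 2. The upstream summit ranked 971 and 972 in the same lists, near the weak end of the first.

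**Figure D2:**
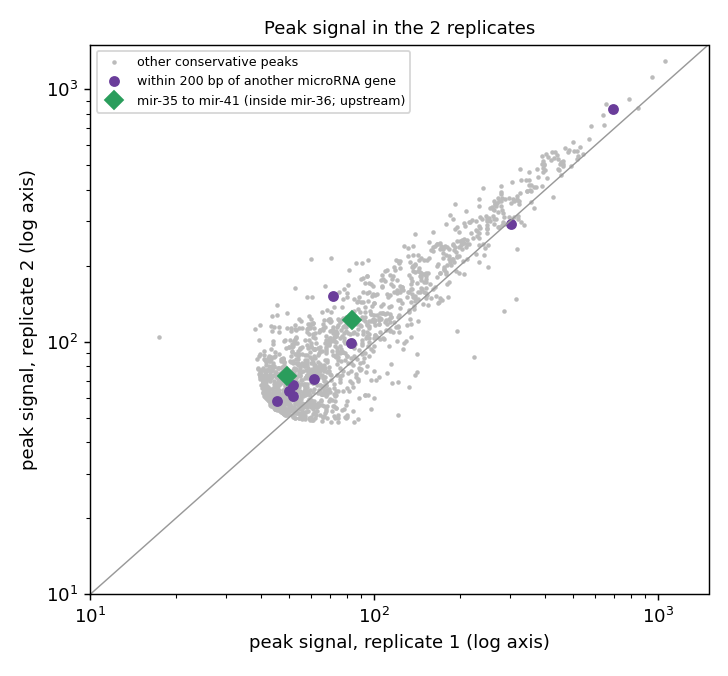
Peak signal in replicate 1 against replicate 2, both on log axes, for conservative peaks with a ranked summit in each replicate, with the line of equality and, in purple, peaks within 200 bp of another microRNA gene. The 2 diamonds are the mir-36 summit (83.5 and 122) and the upstream summit (49.3 and 73.0), both above the line and within the spread of the other peaks.

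The replicates differed in where within the first hairpins the peak stood. The summit was 125 bp from the start of mir-35 in replicate 1 and 195 bp in replicate 2, both inside mir-36 and 70 bp apart. Summits of the 2 replicates were 20 bp apart at the median conservative peak, and 14.0% of peaks had a gap of 70 bp or more. The upstream summits were 33 bp apart. In replicate 1 the peak was 260 bp wide and covered the hairpins of mir-35 and mir-36 completely. In replicate 2 it was 126 bp wide, covered 78 of the 97 bases of mir-36 and none of mir-35. Both peaks reached into mir-37, over 30 of its 98 bases in replicate 1 and 25 in replicate 2, and neither touched mir-38, mir-39, mir-40 or mir-41. The conservative peak covered 36 bases of mir-35, all of mir-36 and 36 bases of mir-37. Median peak widths were 260 bp and 324 bp in the thresholded lists of replicates 1 and 2, and 330 bp in the conservative list. There 886 of 1452 peaks had exactly that width. Widths thus partly follow the list, and the bases covered do not measure the extent of binding.

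The sequence of the conservative peak over the hairpins is shown because it is where the signal was highest. It is the plus strand of ce11, and capitals mark the mature 3′ arms of mir-35 (from its base 2) and mir-36.
chrII:11537669-11537868: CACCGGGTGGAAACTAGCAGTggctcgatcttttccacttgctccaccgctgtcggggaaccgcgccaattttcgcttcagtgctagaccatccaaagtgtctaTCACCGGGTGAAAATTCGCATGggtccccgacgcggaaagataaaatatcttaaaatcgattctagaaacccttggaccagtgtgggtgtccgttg
The central 101 bp of the upstream peak are shown beside it, with the word GAGAGA in capitals.
chrII:11537062-11537162: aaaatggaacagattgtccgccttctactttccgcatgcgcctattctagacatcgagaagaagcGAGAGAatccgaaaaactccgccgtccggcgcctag

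Within 50 bp of the summits, 5 short words were searched on both strands. The word GTAAACA, known as a core site of forkhead factors, was not tested for binding by PES-1 here, and 1.24% of all 1452 conservative summit windows held it. The repeat word GAGAGA was in 12.5% of those windows. The word TGATAA, known from GATA factors, was in 3.17%. The word TAATTA, known from homeobox factors, was in 1.45%, and the E-box word CACGTG was in 1.79%. The window over mir-36 held none of them. The upstream window held GAGAGA once, starting 15 bp after the summit, and none of the others. With 1 match in all, no words overlapped. The absence of a word says only that its letters are not in these windows. G and C made up 53.5% of the window over mir-36 and 51.5% of the upstream window, close to the median of 50.5% over all conservative windows, while the nuclear genome as a whole held 35.4%.

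The genes nearest the summit were those at the 5′ end of the cluster. In the conservative list a summit lay within 200 bp of 4 of the 7 genes, and the same held for 15 of all 261 microRNA genes (5.75%) and for 3.62% of all annotated nuclear genes. Since the 4 genes share 1 distinct summit, they count as 1 place and not as 4. The distance to that summit was 37 bp for cel-mir-35, 0 for cel-mir-36, 92 bp for cel-mir-37 and 192 bp for cel-mir-38, the last gene inside the limit. It was 348 bp for cel-mir-39, the first gene outside it, 443 bp for cel-mir-40 and 567 bp for cel-mir-41. The same 4 genes were within 200 bp in replicate 1's own list and in that of replicate 2, in each of which 3.83% of microRNA genes were. In replicate 1 mir-38 stood at exactly 200 bp, so its inclusion there depends on how bases are counted. The optimal list, derived from both replicates, held the same summit and the same 4 genes, against 6.13% of microRNA genes.

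Within 1000 bp, all 7 genes had a conservative summit, against 13.4% of microRNA genes and 5.91% of all annotated genes. Because these lists chose the genes, nothing is read from these shares. Over the whole cluster there were 2 distinct summits in that distance, the one in mir-36 and the upstream one, and the optimal list and both replicates' lists gave 2 as well (14.2%, 11.9% and 9.96% of microRNA genes were within 1000 bp in the optimal list, replicate 1 and replicate 2). The 254 other microRNA genes had a conservative summit within 200 bp in 4.33% of cases and within 1000 bp in 11% of cases.

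**Figure D3:**
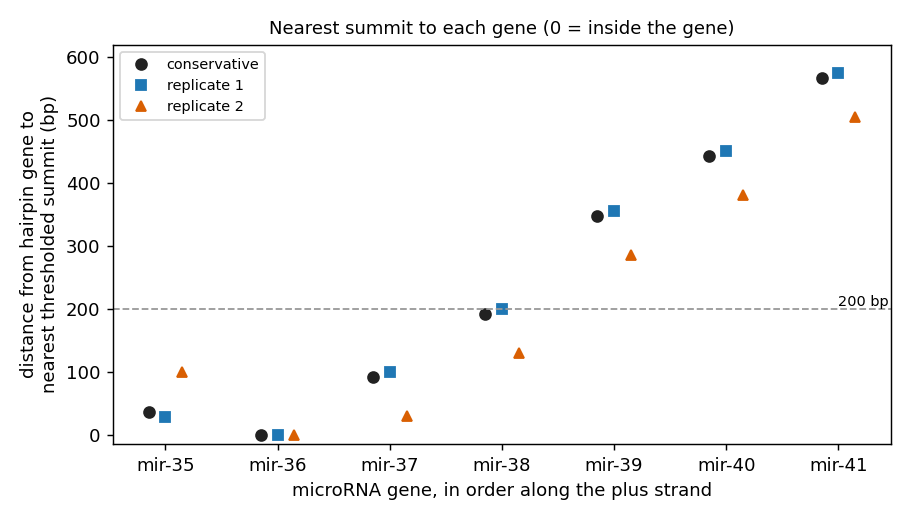
Distance in bp from each hairpin gene to the nearest thresholded summit in the conservative list, replicate 1 and replicate 2, with the genes in order along the plus strand and 0 for a summit inside the gene. The summit is inside mir-36 in every list, and the distance grows from mir-37 to mir-41, whose values lie between 505 and 575 bp.

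The 3′ part of the cluster held weak summits that did not pass the threshold. In the ranked list behind the conservative list, a summit inside mir-38 had a signal of 48.2 and a global IDR of 0.645, and a summit inside mir-41 had a signal of 25.1 and a global IDR of 0.833. Replicate 1 had a summit inside mir-38 with a signal of 21.4 and one 120 bp beyond mir-41 with a signal of 19.2. Replicate 2 had none inside mir-37 to mir-40, and its summit inside mir-41 had a signal of 9.95. Summits of this kind were common, since 43.3% of microRNA genes in replicate 1's ranked list and 42.5% in that of replicate 2 had a summit within 200 bp, and 72.4% and 65.9% within 1000 bp. In those ranked lists 6 of the 7 genes had a summit within 200 bp and all 7 within 1000 bp.

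Joined into loci of 1 strand with gaps of at most 1000 bp, the 261 microRNA genes made 227 loci. Of these, 11 (4.85%) had a conservative summit within 200 bp and 22 (9.69%) within 1000 bp, and the cluster ranked 4 by signal among the 11, whose median was 125. The loci above it were mir-51 (1560), mir-52 (652) and the group of mir-54, mir-55 and mir-56 (239), all members of the mir-51 family, another family of microRNAs of the worm embryo. The other member of that family, mir-53, lay 1393 bp from the nearest conservative summit, but the optimal list held a summit 5 bp from it with a signal of 119. The ranked summit nearest to mir-53 was 31 bp away in replicate 1 (signal 33.9) and inside the gene in replicate 2 (signal 74.9), and neither passed the threshold of its replicate. The loci closest to the cluster in log2 signal were mir-54 to mir-56 (a difference of 0.25), mir-4936 (0.28, signal 165) and mir-8201 (0.68, signal 125), taken over the conservative list of 2 replicates. Replicate signals were 71.5 and 152 at mir-54 to mir-56, 82.8 and 99.0 at mir-4936 and 51.7 and 67.7 at mir-8201, for replicates 1 and 2. At each of these loci, as at the cluster and at most conservative peaks, replicate 2 was the higher. At mir-52 replicate 1 was the higher (303 against 293). The strongest summit lay inside the locus in 6 of the 11 cases, including the cluster, upstream in 3 and downstream in 2. In 6 of the 227 loci, the cluster among them, at least 2 conservative summits lay within 1000 bp. Among these 6, the locus of mir-54 to mir-56 and that of mir-55b overlap on opposite strands and share their strongest summit, so they are 1 place counted under 2 loci.

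**Figure D4:**
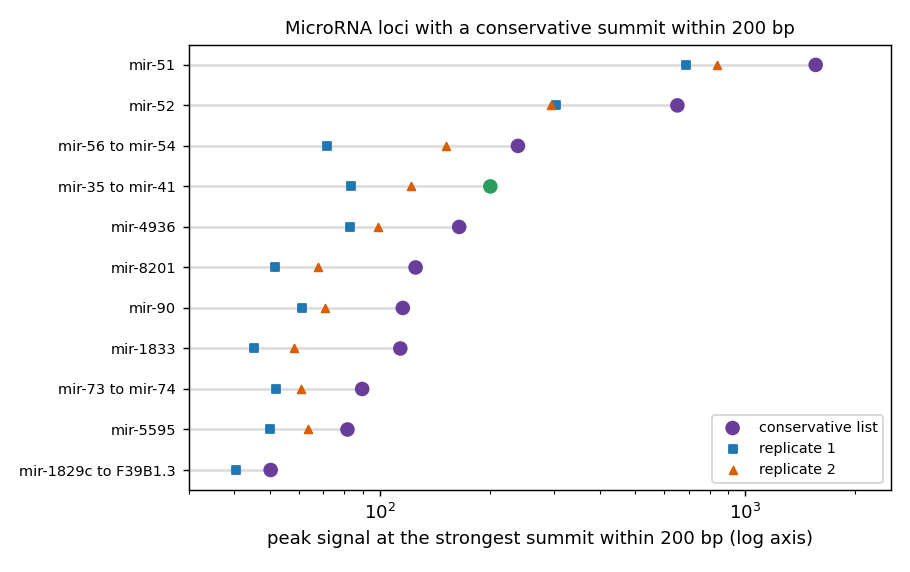
Peak signal on a log axis at the strongest conservative summit within 200 bp of each of 11 microRNA loci, with the signal of the nearest summit in each replicate's ranked list where one lay within 200 bp. The cluster of mir-35 to mir-41 (green) stands at 201, below the 3 loci of the mir-51 family and just above mir-4936 at 165.

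mir-42, the gene outside the cluster with the same seed, stands in a group with mir-43 and mir-44 at 11889811 to 11890118 on chromosome II. None of these 3 genes had a conservative summit within 200 bp, against 5.75% of all microRNA genes. At that share, none of 3 is no result about these genes. The nearest conservative summit, with a signal of 124, was 875 bp from mir-42, 773 bp from mir-43 and 662 bp from mir-44. The ranked list behind the conservative list had a summit 48 bp from mir-42 with a signal of 39.9, which did not pass the threshold (-log10 global IDR 0.16).

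Genes that make or use microRNAs were examined as a list of 14. A promoter summit lies from 1000 bp upstream to 200 bp downstream of a 5′ end. The list was chosen with earlier results of these data known, so nothing is read from its shares. A conservative promoter summit was present at 4 of the 14 genes, against 4.08% of 19973 protein-coding genes. These were the Argonaute genes alg-5 (conservative signal 407) and alg-2 (157), cgh-1 (112), which encodes an RNA helicase of cytoplasmic RNA granules, and ain-1 (55.1), which encodes a partner of Argonautes in silencing. The alg-5 summit lay 825 bp before the start of the gene. The alg-2 summit lay 369 bp inside its gene, so it was counted through another annotated 5′ end. The signal was 161 in replicate 1 and 236 in replicate 2 at alg-5, 59.6 and 95.9 at alg-2, and 41.9 and 59.3 at cgh-1. At ain-1 it was 48.3 in replicate 1, and replicate 2 had no summit within 200 bp. The conservative ain-1 summit ranked 1405 of 1452. A stronger ranked summit in the ain-1 promoter (signal 96.6) did not pass the threshold (-log10 global IDR 0.16). The optimal list kept alg-5, alg-2 and cgh-1 (4.76% of protein-coding genes), and the thresholded lists of replicate 1 (3.09%) and replicate 2 (3.42%) had a promoter summit at alg-5 and alg-2 alone. No conservative promoter summit was found at the other 10: the microprocessor genes drsh-1 and pash-1, the Dicer gene dcr-1, the Argonaute gene alg-1, ain-2, tsn-1, the exonuclease genes xrn-1 and xrn-2, nhl-2, and ebax-1, whose product takes part in the decay of mir-35 family RNAs.

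Of 5 genes listed as targets of the family, none had a conservative promoter summit, against 4.08% of protein-coding genes, a share at which none of 5 is no result about these genes. They were sup-26 and nhl-2, through which the family acts on sex determination, the cell death gene egl-1, the ubiquitin ligase gene lin-23 and the translational repressor gene gld-1. The promoter of sup-26, alone of the 5, had a summit in the optimal list (4.76% of protein-coding genes) and in the thresholded lists of replicate 1 (3.09%) and replicate 2 (3.42%). In the ranked list behind the conservative list that promoter's strongest summit had a signal of 129 and a -log10 global IDR of 1.90, just short of the threshold of 2. At nhl-2 the corresponding values were 91.7 and 1.91. No ranked summit was listed in the promoters of egl-1, lin-23 and gld-1.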

How the data were processed

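ChIP-seq of tagged PES-1 in 2 replicates of 1 group was deposited as lists of peaks on ce11, which is the WBcel235 assembly of the reference used. Per the deposited notes on the files, both replicates used 1 control file and peaks were ranked by IDR. For the peak caller, the aligner and the read depth, nothing is stated: not given in the sources used here. The score column, as the authors deposited it, holds a rescaled IDR and served to match lists. Deposited signal values come from the peak caller, and no scaling between lists is stated. The deposited ranked lists give the -log10 of the global IDR, and the lowest in the thresholded lists is 2.00. The other deposited value used is the offset of the summit from the peak start. Of each ranked list, 8 unnamed columns were not used.

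Mitochondrial peaks were left out and summits were counted at distinct positions. Genes came from Ensembl release 115. Distances run from the summit to the nearest base of the annotated hairpin gene. A replicate's signal at a conservative peak is that of its nearest ranked summit within 200 bp. The members and lists were chosen with earlier results of these data known. Named genes are the members, mir-42 to mir-44, mir-51 to mir-56, the host and nearest coding genes, the 3 loci closest in signal, and the lists given. Python 3.11.15, pandas 2.3.3 and Biopython 1.88 were used. The code for gene assignment was checked on simulated summits by the same 200 bp rule, which does not check how bases are counted. The labels call the samples biological replicates, and with 1 group there was no comparison between conditions. Alternatives were the optimal list, each replicate alone, a stricter IDR, other windows, merged summits and no threshold.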

Additional observations from a re-analysis of the deposited data

How the results depend on the processing

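In the conservative list a summit within 200 bp was present at 4 of the 7 genes, at 1 distinct summit, and at 15 microRNA genes in all, and the strongest summit ranked within the top 33.3% of the list. The count of 4 genes and of 1 summit was the same in the optimal list and at a global IDR of 0.001. It was also the same with summits merged and without either replicate (4 to 4 genes, 1 to 1 summits). With a window of 100 bp there were 3 genes, 1 summit and 11 microRNA genes. A window of 1000 bp gave 7 genes, 2 summits and 35 microRNA genes, as follows from its width. With no threshold there were 7 genes, 3 summits and 119 microRNA genes, and the rank was 0.764% of the longer list. At an IDR of 0.001 there were 8 microRNA genes and the rank was 78.4% of the shorter list, and in the optimal list the rank was 27.3%. Without a replicate the rank was 39.5% to 55.3% and the microRNA genes numbered 10 in both cases. The upstream summit did not pass an IDR of 0.001. No paired analysis was possible because the labels define 1 group. Read depth is unknown, so no interval for the sampling of reads is given.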

Other observations

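Another conservative summit lay 1886 bp before mir-35, outside the intron that holds the cluster but still within Y62F5A.9. Its conservative signal was 86.0 and its rank was 1368 of 1452. Replicate 1 had a ranked summit 1915 bp before mir-35 with a signal of 46.5 and a global IDR of 0.127, and replicate 2 had no ranked summit within 200 bp of it. Beyond the cluster and beyond the 5′ end of Y62F5A.9, both replicates had a summit at the same base, 1560 bp from the start of mir-35, with signals of 26.9 in replicate 1 and 27.4 in replicate 2. It did not pass the threshold in the ranked list behind the conservative list (global IDR 0.317).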
